A study of Mus musculus with 4 samples.

Results

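The troponin subunit genes were followed in C2C12 mouse myoblasts in which Sfmbt1, the gene of a chromatin protein with MBT repeats, had been knocked down. The members were all probe sets that the array annotation gives to exactly 1 of 8 genes, Tnni1, Tnni2, Tnni3, Tnnt1, Tnnt2, Tnnt3, Tnnc1 and Tnnc2. There were 12 such probe sets among 34945 assigned to a single gene, and the 8 genes were among 18193 on the array. Tnni2 and Tnnt2 had 3 probe sets each and the other 6 genes had 1 each. C2C12 is an immortal myoblast line that forms multinucleated myotubes when serum is withdrawn. In the knockdown group, 2 cultures carried the lentiviral pLKO.1 vector with an shRNA against Sfmbt1 (shSFMBT1). In the control group, 2 cultures carried the same vector with a control hairpin, which the labels call scramble in 1 field and shLuc in another. All 4 cultures were stable puromycin-selected populations kept in medium with 20% fetal bovine serum, which is growth medium and not differentiation medium. The labels name a single Sfmbt1 hairpin, so an effect of losing Sfmbt1 and an effect of that hairpin on other transcripts cannot be told apart.

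Troponin is the calcium switch of the striated muscle thin filament. Troponin C binds calcium, troponin I holds back the actin-myosin interaction until calcium arrives, and troponin T ties the complex to tropomyosin. Slow skeletal, fast skeletal and cardiac forms are made from separate genes, and in cultured muscle cells these genes are switched on as myoblasts differentiate, downstream of myogenic factors such as myogenin. Those factors bind the E-box, a short motif written CANNTG.

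The promoters of the genes that rose are shown because myogenic factors are known to act on muscle genes through such regions. Each is the 250 bases before a start site in RefSeq (GRCm38.p6), read 5′ to 3′ on the gene's strand, with every E-box (CANNTG, a motif that reads as the same motif on both strands) in capitals. For Tnni1 the first of its starts in the table is shown. The windows are chr1:135799171-135799420 (plus strand), chr7:4515976-4516225 (minus strand), chr14:31208062-31208311 (plus strand) and chr2:164779735-164779984 (minus strand).
Tnni1 promoter: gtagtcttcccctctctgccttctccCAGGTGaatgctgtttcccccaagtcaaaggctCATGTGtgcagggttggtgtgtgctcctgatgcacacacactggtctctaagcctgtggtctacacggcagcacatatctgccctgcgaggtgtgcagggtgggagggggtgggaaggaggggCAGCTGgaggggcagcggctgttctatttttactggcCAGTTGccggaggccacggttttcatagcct
Tnnt1 promoter: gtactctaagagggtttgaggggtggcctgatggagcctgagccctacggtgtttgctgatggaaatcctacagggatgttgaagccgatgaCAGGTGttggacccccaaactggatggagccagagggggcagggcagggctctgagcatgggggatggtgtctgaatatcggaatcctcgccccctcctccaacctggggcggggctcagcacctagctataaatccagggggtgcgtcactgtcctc
Tnnc1 promoter: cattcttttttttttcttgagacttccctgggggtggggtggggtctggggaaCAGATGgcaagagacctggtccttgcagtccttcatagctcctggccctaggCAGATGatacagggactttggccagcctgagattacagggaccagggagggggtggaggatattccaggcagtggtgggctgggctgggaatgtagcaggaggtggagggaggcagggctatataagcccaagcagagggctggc
Tnnc2 promoter: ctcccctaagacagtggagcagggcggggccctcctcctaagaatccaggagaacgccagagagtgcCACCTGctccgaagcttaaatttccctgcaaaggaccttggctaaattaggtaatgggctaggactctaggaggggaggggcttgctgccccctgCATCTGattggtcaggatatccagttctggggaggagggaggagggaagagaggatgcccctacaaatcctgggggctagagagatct

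Tnni1 had 4 E-boxes in this window, Tnnc1 and Tnnc2 had 2 each and Tnnt1 had 1. The second start of Tnni1 had 2. Of the genes that did not pass, Tnnt2 had 4 at the first of its starts and 1 at the other, and Tnni3 had 1. Numbers of E-boxes per window were not compared with all windows. An E-box lay in 66.2% of all 32851 windows of this length in the table, so its presence did not set these promoters apart. The MCAT motif CATTCC, searched on both strands, was present once in the Tnnc1 window, once in the first Tnnt2 window and in 12.6% of all windows. The letters TATAAA, also searched on both strands, were present once in the Tnnt1 window, from 30 to 25 bases before the start, and in 12.4% of all windows. The motif of MEF2 factors, which work with myogenic factors, was found in 0 of the 8 windows held for 6 of the members and in 2.92% of all windows. A match or its absence describes these letters only. Tnni2 and Tnnt3 are named only, without a window.

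Each culture was measured on 1 Affymetrix mouse array as MAS5 signals, linear intensities made by the authors. The background limit of an array was the level that 95% of its 27 bacterial controls did not exceed, and it came to 42.9 to 69.3 on the knockdown arrays and 49.1 to 53.2 on the control arrays. Knockdown replicate 1 had the highest background, and 56.2% of its probe sets lay above it, against 64.3% to 67.6% on the other three arrays. The targeted gene, Sfmbt1, had a lower signal on both knockdown arrays in all 5 of its probe sets. Probe set 1422894 read 74.6 and 16 in the knockdown, against 241.7 and 277.9 in the control, and was at least 3.77-fold lower with the 1 knockdown array in the background range put at its limit (adjusted p = 0.0219). The other tested probe sets stood at 43.7% to 69.2% of the control and did not pass (adjusted p = 0.0594 to 0.339), and 1443853 lay in the background range on all 4 arrays.

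Differences are given on the log2(signal + 16) scale, knockdown minus control, from limma with Benjamini-Hochberg adjustment over 22893 probe sets that passed a filter on dim signals. On this scale the change of a dim probe set is understated. Of the 12 troponin probe sets 10 passed the filter, covering 7 genes. The slow skeletal genes Tnni1 and Tnnt1, the slow and cardiac Tnnc1 and the fast skeletal Tnnt3 and Tnnc2 rose in the knockdown, by 1.32 to 3.26 log2 units. Tnni2, which encodes fast troponin I, and the cardiac genes Tnnt2 and Tnni3 gave no probe set that passed. Thus 5 of the 10 tested probe sets were called higher and 0 lower, where 0.961% of all tested probe sets were called higher and 1.43% lower. By an unadjusted p under 0.05, 8 of the 10 were higher and 0 lower, where 1583 of all 22893 tested probe sets were higher and 1959 lower.

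The median difference of the 10 tested probe sets was 1.41, against -0.01 over all tested probe sets. These counts and the median are a description and no support, because 3 of the 10 tested probe sets had a control mean below the filter limit and came in through their knockdown level. Groups did not overlap in 8 of the 10 tested troponin probe sets, and in 45.6% of all tested probe sets. In RNA from whole cultures, more cells with troponin RNA and more troponin RNA per cell cannot be told apart. Levels were not ranked between genes, since signals of different probe sets are not on a common scale.

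**Figure D1:**
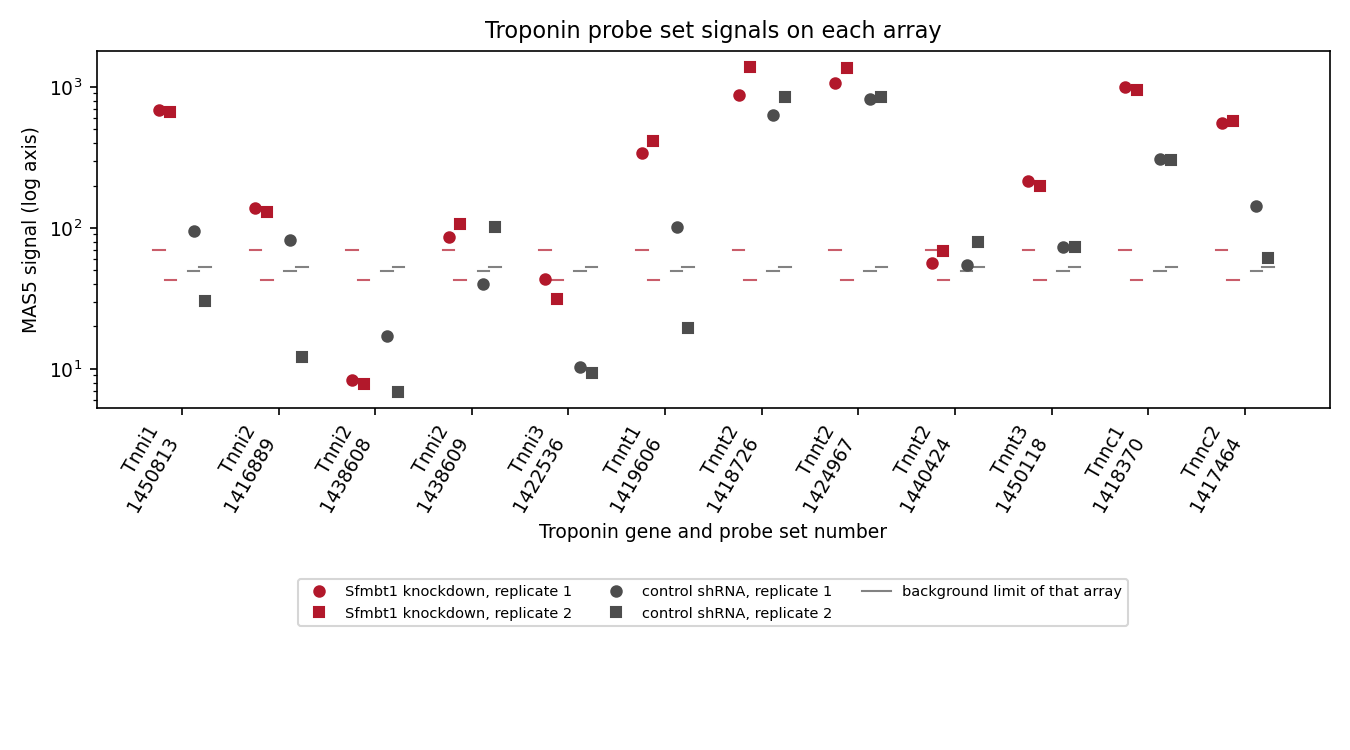
MAS5 signal (log axis) of each of the 12 troponin probe sets on the Sfmbt1 knockdown arrays (red, left) and the control shRNA arrays (grey, right), with circles for replicate 1, squares for replicate 2 and short lines for the background limit of each array. The knockdown points of Tnni1, Tnnt1, Tnnt3, Tnnc1 and Tnnc2 lie above both control points, and in Tnni1, Tnnt1 and Tnni2 (1416889) control replicate 2 lies under its background limit.

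Among the inhibitory subunits, Tnni1 encodes slow skeletal troponin I, the form that developing muscle makes early. Its probe set 1450813 read 685.6 and 660.5 in the knockdown, against 94.6 and 30.5 in the control. The knockdown cultures were close to each other and far above both control cultures. The log2 difference was 3.26 (SE 0.34, adjusted p = 0.000827). Control replicate 2 was under its background limit. Taking that limit as its value, Tnni1 rose at least 7.87-fold.

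Tnni2, which encodes fast skeletal troponin I, gave 3 readings that differed. Probe set 1416889 read 137.5 and 130.5 in the knockdown, against 82.7 and 12.1 in the control. Both knockdown values lay above both control values, but the control cultures were far apart, 1 of them in the background range. The difference was 1.51 (95% confidence interval 0.31 to 2.71, adjusted p = 0.203). Probe set 1438609 read 85.8 and 107.5 in the knockdown, against 39.8 and 101.7 in the control, so the groups overlapped (difference 0.47, interval -0.50 to 1.44, adjusted p = 0.673). Probe set 1438608, drawn from the same sequence record as 1438609, lay in the background range on all 4 arrays and was not tested. In the control, 1416889 was higher in replicate 1 and 1438609 higher in replicate 2, so the Tnni2 probe sets did not order the control cultures alike.

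Tnni3 encodes cardiac troponin I. Its probe set 1422536 read 43.7 and 31.3 in the knockdown, against 10.3 and 9.4 in the control. The groups did not overlap, but all 4 arrays lay in the background range, so no fold is given, and the probe set did not pass the filter. Without the filter its difference was 1.04 (adjusted p = 0.321).

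Among the tropomyosin-binding subunits, Tnnt1 encodes slow skeletal troponin T. Probe set 1419606 read 340.2 and 417.1 in the knockdown, against 102.2 and 19.6 in the control. The groups were clearly apart, although control replicate 2 was in the background range and well below replicate 1. The difference was 2.60 log2 units (SE 0.45, adjusted p = 0.0137), and with that array set to its limit Tnnt1 rose at least 4.34-fold.

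Tnnt3, the fast skeletal troponin T gene, read 215.4 and 197.0 in the knockdown, against 73.4 and 73.0 in the control (probe set 1450118). The control cultures were nearly equal and both lay above their background limits of 49.1 and 53.2. The difference was 1.32 (SE 0.29, adjusted p = 0.0370), the smallest among the troponin probe sets that passed. It lost its call without knockdown replicate 1 (adjusted p = 0.0627), without control replicate 1 (adjusted p = 0.0517), and with the replicate block (adjusted p = 0.0505).

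Tnnt2 encodes cardiac troponin T, a form that embryonic skeletal muscle also makes. Probe set 1418726 read 875.8 and 1387.3 in the knockdown, against 628.1 and 848.5 in the control. Probe set 1424967 read 1065.4 and 1374.6 in the knockdown, against 816.6 and 853.8 in the control. The groups did not overlap in either, and in 1418726 the lower knockdown culture stood just above the higher control culture. Their differences were 0.58 (interval 0.12 to 1.05, adjusted p = 0.204) and 0.53 (interval 0.19 to 0.87, adjusted p = 0.111), so neither passed. Both lay above background on every array, the control arrays included.

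Whether Tnnt2 passed depended on several settings, among them whether knockdown replicate 1 was kept. Without it the differences of 1418726 and 1424967 were 0.91 (adjusted p = 6.69e-05) and 0.71 (adjusted p = 0.00348), with a single knockdown array assumed to vary like the controls. Centring each array on its median also brought 1424967 past the threshold (adjusted p = 0.0482), and the replicate block 1418726 (adjusted p = 0.0374). The third probe set, 1440424, read 56.3 and 68.5 in the knockdown, against 54.5 and 79.1 in the control. It lay near background with overlapping groups (difference -0.07, interval -1.04 to 0.90, adjusted p = 0.965).

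**Figure D2:**
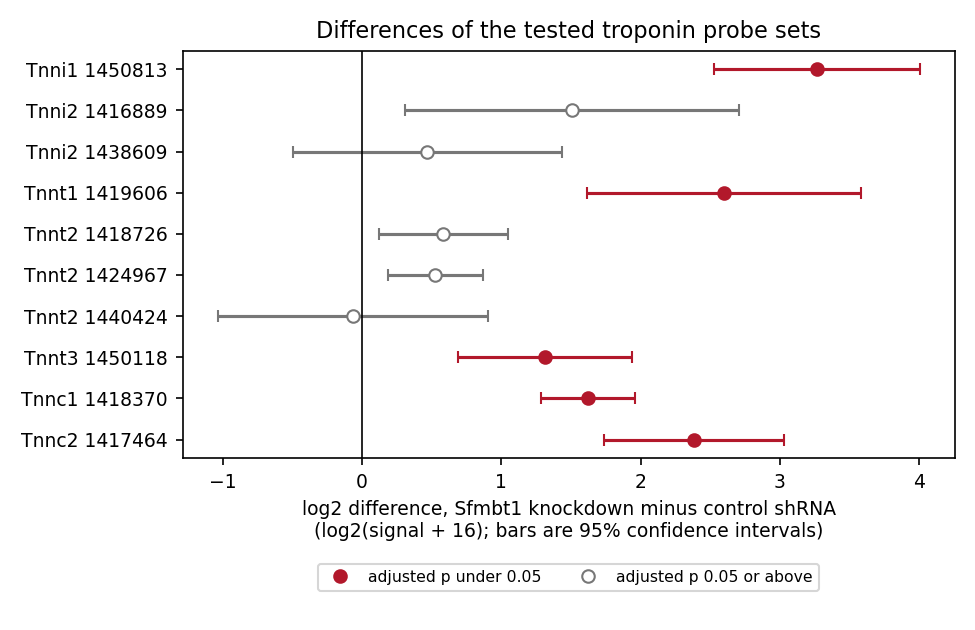
Log2 difference, Sfmbt1 knockdown minus control shRNA, of the 10 tested troponin probe sets with 95% confidence intervals from limma. Filled points passed an adjusted p of 0.05, namely Tnni1, Tnnt1, Tnnt3, Tnnc1 and Tnnc2, and the highest value is 3.26 in Tnni1.

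Among the calcium-binding subunits, Tnnc1 encodes the troponin C shared by slow skeletal and cardiac muscle. Probe set 1418370 read 995.7 and 959.0 in the knockdown, against 308.9 and 303.2 in the control. Both groups were tight and far above background, and the mean was 3.19 times higher in the knockdown (977 ± 26.0 against 306 ± 4.03, SD, n = 2 each). The log2 difference was 1.62 (SE 0.15, adjusted p = 0.000699 by limma), and the gene passed with any 1 array left out.

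Tnnc2 encodes fast skeletal troponin C. Probe set 1417464 read 555.2 and 571.5 in the knockdown, against 143.0 and 61.7 in the control. The knockdown cultures agreed closely, and both exceeded the control cultures. The difference was 2.38 (SE 0.30, adjusted p = 0.00217).

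In 3 of the 5 risen genes, Tnni1, Tnnt1 and Tnnc2, the cultures differed more within the control than within the knockdown. The 5 probe sets that passed differed by at most 0.28 log2 units between the 2 knockdown cultures. Between the 2 control cultures the gap, replicate 1 minus replicate 2, was 1.73 in Tnnt1, 1.25 in Tnni1 and 1.03 in Tnnc2, but 0.03 in Tnnc1 and 0.01 in Tnnt3. The Tnni2 probe set 1416889 had a gap of 1.81 in the same direction. Control replicate 2 read 19.6 in Tnnt1, 30.5 in Tnni1 and 12.1 in this Tnni2 probe set, under its background limit of 53.2. The sizes of these gaps are therefore uncertain. Over all tested probe sets the median absolute gap was 0.19 between the control cultures and 0.22 between the knockdown cultures. The gap ran the other way in Myl1, a fast myosin light chain gene, with 132.1 in control replicate 1 and 360.4 in control replicate 2. The 8 tested thick filament genes had a median control gap of 0.00. Which control culture was higher thus differed between genes.

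Without control replicate 2, the differences were 2.64 in Tnni1, 1.73 in Tnnt1 and 1.87 in Tnnc2, and all 3 genes passed. Without control replicate 1 the difference in Tnnc2 was 2.90 and the gene passed. For Tnni1 and Tnnt1 the control left in that case is a single array that read 30.5 and 19.6, under its background limit of 53.2, so no size is given. Leaving out either control array gave 1.61 to 1.64 in Tnnc1 and 1.31 to 1.32 in Tnnt3. With control replicate 2 left out, Tnni2 probe set 1416889 differed by 0.60 and missed the threshold (adjusted p = 0.603). It passed without control replicate 1 (adjusted p = 0.0137), but against a single control reading of 12.1, which is not above background.

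**Figure D3:**
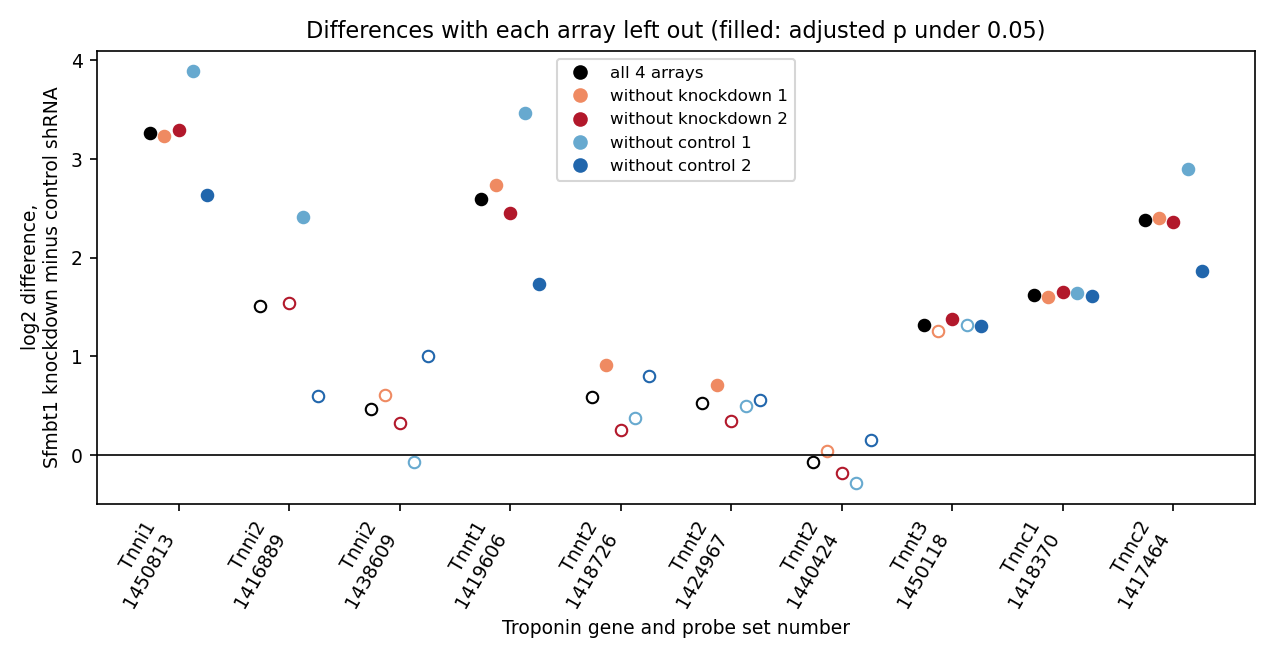
Log2 difference, Sfmbt1 knockdown minus control shRNA, of the tested troponin probe sets with all 4 arrays (black) and with each array left out (colours), filled where the adjusted p lay under 0.05. Tnni1, Tnnt1, Tnnc1 and Tnnc2 are filled in all 5 settings, and leaving out a control array moves Tnni1, Tnnt1, Tnnc2, Tnni2 (1416889) and Tnni2 (1438609) more than the other probe sets. Points of Tnni1, Tnnt1 and Tnni2 (1416889) without control replicate 1 stand against a single control reading under its background limit.

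The calls of the troponin genes also rest on the model. Without a trend of variance on mean level limma called 0 of the 22893 probe sets, while 1165 were higher and 1748 lower at an unadjusted p under 0.05. The 5 troponin probe sets then had adjusted p = 0.138 to 0.251, and 7 of the 10 an unadjusted p under 0.05. Without the filter Tnnc1 (adjusted p = 0.0185) and Tnni1 (adjusted p = 0.0481) still passed, and Tnnc2 (0.0691), Tnnt1 (0.146) and Tnnt3 (0.176) did not. An exact two-sided permutation test of a single probe set, 2 arrays against 2, cannot give a p under 0.333. Of all probe sets 220 were called higher and 328 lower, 40.1% higher, and with median centring 401 and 333, 54.6% higher.

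In the genome 6 of the 8 genes lie as troponin I and troponin T neighbours. In the RefSeq gene order of GRCm38.p6, Tnni3 and Tnnt1 are adjacent, Tnni1 and Tnnt2 are separated by Lad1, and Tnni2 and Tnnt3 are separated by Lsp1 and Prr33. Each pair held 1 gene that rose, Tnnt1, Tnni1 and Tnnt3, and 1 that did not pass, Tnni3, Tnnt2 and Tnni2. This split follows the thresholds, since Tnni3 did not pass the filter and was not tested. The tested probe sets of Tnni2 gave 1.51 and 0.47, against 1.32 in Tnnt3. Whether the partners differ from each other was not tested. Of the genes up to 3 places to either side of a troponin gene, 19 others were tested, and 0 were called (limma, adjusted p of 0.172 or above). Their differences ran from -0.52 in Lad1 to 0.89 in Syt8, with a median of 0.03.

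The partners of troponin in the sarcomere were read in lists, 1 probe set per gene, the brightest tested. Over all 12866 genes read in this way 1.02% were called higher and 1.15% lower. The median difference of these genes was 0.01, while that of the 7 tested troponin genes was 1.62. Of 11 tested thin filament partners 2 rose, 0 fell, and the median was 0.04. Both that rose are sarcomeric actins, Actc1 by 2.14 (adjusted p = 7.21e-05) and Acta1 by 1.70 (adjusted p = 0.000551). The tropomyosin genes Tpm1, Tpm2, Tpm3 and Tpm4, whose products troponin T binds, differed by -0.26, -0.26, 0.04 and -0.03 and did not pass (adjusted p = 0.332 to 0.923). The other 4 tested probe sets of Tpm3 gave 0.25 to 0.60. Tpm1 read 8672 and 9146 in the knockdown, against 9805 and 11582 in the control.

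Of 8 tested thick filament genes 6 rose and 0 fell, with a median of 1.86. As in the troponin family, this count describes what passed the filter, since Myh1 and Mybph had a control mean below its limit. Mylpf, the fast regulatory light chain gene, rose by 2.54 (adjusted p = 5.11e-05), Myh3, embryonic myosin heavy chain, by 2.30 (adjusted p = 0.000818) and Myl1 by 2.84 (adjusted p = 0.00117). Only 8 of 21 genes on the list passed the filter, and Myh2, Myh4, Myh6, Myl2, Myl7 and Mybpc2 lay in the background range on all 4 arrays. For calcium release and uptake, which feeds the troponin switch, 0 of 17 tested genes rose, 1 fell and the median was -0.03. The gene that fell was Jph2, a junctophilin that joins the calcium store to the cell membrane, by 1.10 (adjusted p = 0.00419). Atp2a1, the fast-fibre calcium pump, differed by 0.72 (adjusted p = 0.127) and Casq2, a calsequestrin, by 0.99 (adjusted p = 0.120).

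Of 19 tested regulators of muscle and fibre-type genes 1 rose and 0 fell, with a median of -0.15. That was Myog, myogenin, with 1656.7 and 1832.6 in the knockdown, against 341.9 and 296.2 in the control (2.40, adjusted p = 5.11e-05). Sox6, which in mouse muscle holds down slow-fibre genes, read 79.8 and 195.1 in the knockdown, against 129.2 and 125.0 in the control. Its groups overlapped and its difference was -0.01 (SE 0.37, adjusted p = 0.995).

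**Figure D4:**
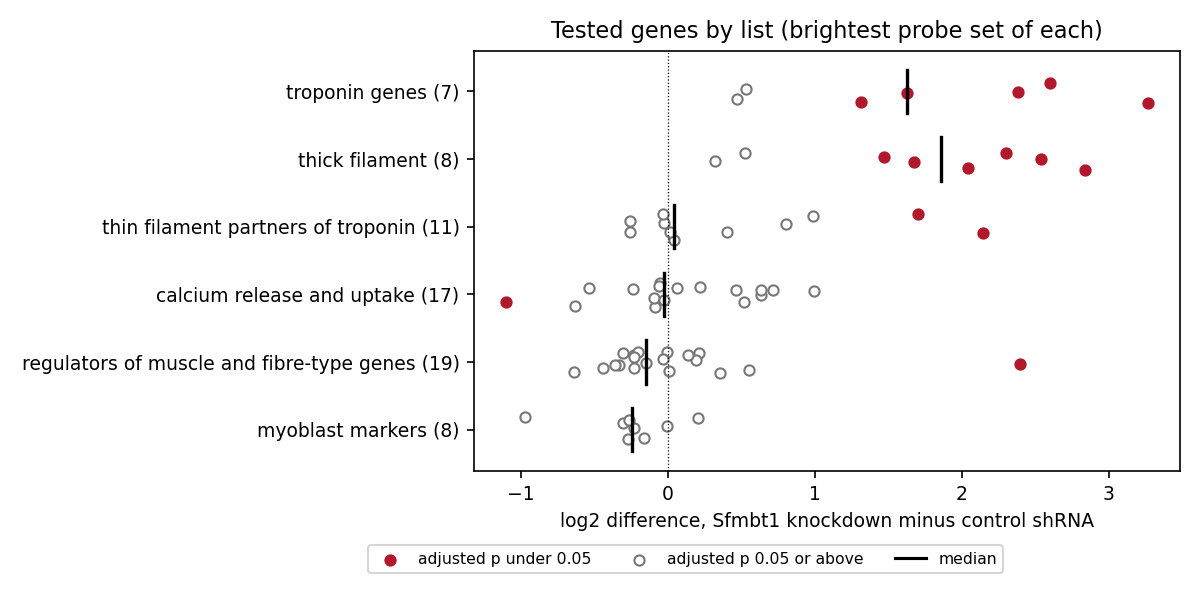
Log2 difference, Sfmbt1 knockdown minus control shRNA, of each tested gene (its brightest probe set) in the troponin family and 5 lists, with the number tested in brackets, filled where the adjusted p lay under 0.05 and a black bar at the median. Medians were 1.62 for troponin genes, 1.86 for the thick filament, 0.04 for thin filament partners, -0.03 for calcium handling, -0.15 for regulators and -0.25 for myoblast markers.

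The genes whose pattern over the 4 arrays was nearest the mean pattern of the 5 risen troponin genes were Syne4, Usp2, Art1, Myog and Myh3. Likeness was the Euclidean distance of mean-centred log2 signals, 0.36 to 0.51, in a search over the other tested genes. Syne4, which encodes a nesprin of the nuclear envelope, read 182.9 and 190.5 in the knockdown, against 58.3 and 24.8 in the control. Its control readings were ordered as in Tnni1, with replicate 2 in the background range, so the size of that gap is uncertain. Usp2, a deubiquitinating enzyme gene, read 281.3 and 294.3 in the knockdown, against 43.5 and 25.6 in the control, both in the background range. Art1, an ADP-ribosyltransferase gene of muscle, read 320.8 and 276.2 in the knockdown, against 100.0 and 53.4 in the control. With 4 arrays in 2 groups this likeness mostly restates the difference between the groups.

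Markers of the cell types that a culture could hold were read beside these values. All 8 myoblast markers lay above background on all 4 arrays, their summed signal was 52979 to 54507 in the knockdown and 53678 to 56269 in the control, and 0 were called. Vim, the intermediate filament gene vimentin, made up most of that sum, with 41301 and 38818 in the knockdown, against 39726 and 40671 in the control. Of the 8 differences 1 was positive, and the median was -0.25. Pax7, a satellite cell factor, read 129.7 and 236.0 in the knockdown, against 406.7 and 318.4 in the control, with no overlap (difference -0.97, adjusted p = 0.0882). The other tested probe set of Pax7 gave -0.11. Of 11 markers of mature fibres 7 and 8 lay above background on the knockdown arrays and 5 and 4 on the control arrays. Their summed signal was 1772 to 1955 in the knockdown and 1182 to 1257 in the control. Of the 6 tested, only Myh1 rose, at least 3.46-fold (adjusted p = 0.0135). Its probe set, 1427868, is of a kind shared between transcripts, and the part of other transcripts in its signal was not tested. Atp2a1 (0.72), Casq1 (0.52), Pvalb (0.46), Ckm (0.38) and Actn3 (0.20) did not pass. Myh2, Myh4 and Mybpc2 stayed in the background range on all 4 arrays. Myh7 and Mb did not pass the filter and were not tested. Myh7 read 94.8 and 106.4 in the knockdown, against 35.4 and 23.4 in the control. Mb read 58.8 and 111.1 in the knockdown, against 15 and 47.9 in the control. These control readings, and that of Mb on knockdown replicate 1, lay in the background range. Of 9 cardiomyocyte markers 4 and 6 lay above background in the knockdown, 6 and 7 in the control, and their sums were 1365 to 1486 and 1064 to 1384. The sarcomeric markers Myh6 and Myl7 were in the background range throughout, while Gata4, Nkx2-5, Nppb and Myl4 lay above it on all 4 arrays. Gata4 read 497.8 and 388.0 in the knockdown, against 424.0 and 421.7 in the control, and its groups overlapped, as did those of Nkx2-5 and Nppb. Myl4, which embryonic skeletal muscle also expresses, rose by 1.67 (adjusted p = 0.00311), with -1.15 in its other tested probe set.

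Of 8 fibroblast markers 7 and 8 lay above background on the knockdown arrays and all 8 on both control arrays, and the sums were 29031 to 30409 and 22276 to 23955. Of 7 tested, the collagen genes Col1a1 and Col1a2 rose, by 1.96 (adjusted p = 0.000388) and 0.55 (adjusted p = 0.0423). Other tested probe sets of Col1a2 gave 0.02 to 0.63. Col3a1 (0.21), Dcn (0.20), Thy1 (0.11), Pdgfra (0.05) and Fbln1 (-0.23) did not pass. Col1a2 and Col3a1 made up most of the fibroblast sums. Of 6 smooth muscle markers 4 lay above background on every array, Myh11 and Cnn1 lay below it on all 4, and Tagln fell by 0.65 (adjusted p = 0.0315), with sums of 29463 to 29669 in the knockdown and 28890 to 31057 in the control. Of 5 neuronal markers 4 lay above background on every array and 0 were called, with sums of 4704 to 5576 and 5102 to 5256. The part of the myoblast, fibroblast, cardiomyocyte and mature fibre markers in the troponin differences was not tested.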

How the data were processed

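RNA of 2 knockdown and 2 control cultures was measured on 1 array each. The values were used as deposited, as linear intensity per probe set, and the submitters' processing notes name MAS5 and GCOS. The scaling between arrays is not given in the sources used. Of 45101 probe sets 34945 had 1 gene in the annotation, 932 had several and 9160 none there, and 64 were controls. Gene identifiers matched a RefSeq table for 34741 of these probe sets.

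Signals were transformed as log2(signal + 16). The filter kept the upper 60% of probe sets by mean log2 signal, a limit equal to a signal of 57.3. Groups were compared with limma 3.58.1 (lmFit, eBayes with a variance trend) in R 4.3.3, with Benjamini-Hochberg adjustment over 22893 probe sets and a threshold of 0.05. There were 2 residual degrees of freedom, and the prior added 9.60. Only 4 arrays limit the precision. Intervals come from the same fit.

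Bounds use the mean of log2(signal + 16) with background-range arrays of the dimmer group at their limit. The fit was also run on simulated data for this comparison (10 runs, 22866 probe sets on average). It called 54.2% of probe sets changed by 1 log2 unit and 92.0% of those changed by 2, and 2.55% of its calls were false. The simulated spread was made to follow mean level, as the variance trend assumes. These rates therefore hold for that setting and are not error rates of the calls reported here.

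The members and the gene lists were chosen with earlier results of these data known. The rule for named genes takes every troponin and Sfmbt1 probe set, up to 3 called genes of smallest p per list, Myog and Sox6, and the 5 nearest genes by pattern. Other genes named were picked after their values were seen.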

Additional observations from a re-analysis of the deposited data

How the results depend on the processing

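All 5 troponin probe sets that passed had a positive difference in each of the 65 values computed under 14 alternatives, and kept their call in 54 of these. The sign is no test, because in these probe sets both knockdown readings lay above both control readings. Leaving out an array or changing the pseudocount could therefore not turn it. Settings that change only the filter, the variance model or the replicate block keep the same difference. The number of troponin probe sets called higher, 5, was 2 without the filter (12 tested), 3 in the upper 40% (5 tested), 0 without the variance trend and 2 without probe sets shared between transcripts (4 tested), since fewer members entered the upper 40% and the unshared set. It was 5 or 6 with any 1 array left out, and 0 were called lower in any setting (limma).

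Over all probe sets, 220 higher and 328 lower became 22 and 41 without the filter, 359 and 591 in the upper 40%, and 0 and 0 without the trend (1165 and 1748 at an unadjusted p under 0.05). The higher count was 401 with median centring and 132 without shared probe sets, and the lower count 207 with 1 probe set per gene. Leaving out each array gave 146 to 740 higher and 192 to 1045 lower. The cause was not tested.

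Probe sets that did not pass changed sign: Tnni2 1438609 ran from -0.070 to 1.01 and Tnnt2 1440424 from -0.28 to 0.15 (0.05 without knockdown replicate 1) with each array left out. Whether the replicate numbers pair the samples is not known. Same-numbered deviations correlated at 0.01 over 22893 probe sets, which cannot settle it with 1 gap per group. With the replicate block 379 were higher and 478 lower, and 5 troponin probe sets were called, with Tnnt2 1418726 in place of Tnnt3. With the background limit at the highest bacterial control the bounds were 7.48-fold in Tnni1 and 4.12-fold in Tnnt1. Control replicate 1 of Tnnt3, at 73.4, then lay below its limit of 80.9, and the bound of Tnnt3 was 2.39-fold.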
